A study of Schizosaccharomyces pombe with 36 samples.

Results

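A set of 102 genes of the fission yeast Schizosaccharomyces pombe had more RNA in cells without the SAGA subunit Spt20, but little or no more RNA in cells without its partner Tra1. The set was chosen by measured values. Levels are in CPM, a gene's count scaled so that each library sums to 1000000, and M is log2((mean CPM of the mutant + 1)/(mean CPM of its control + 1)). The rule kept genes whose mean over all 36 libraries reached 10 CPM, with an M of at least 0.7 in spt20Δ and under 0.3 in tra1Δ. It further asked for an M within 0.5 of 0 on loss of Tti2, an M under the log2 of 1.5 on loss of Tra2 and an M within 0.3 of 0 for induction of the Cre recombinase alone. Of 5129 genes in the table, 4653 passed the CPM minimum and 406 of these had an M of at least 0.7 in spt20Δ. Of the 406 genes, 182 had an M of at least 0.3 in tra1Δ and were left out, and the limits on the other conditions left 102 of the remaining 224. All 102 members code for proteins, 80 of them with a gene symbol. Members' values in spt20Δ, tra1Δ, WT and the cultures with β-estradiol or DMSO are therefore a description, with no test.

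All strains grew in the rich medium YES to mid-log phase, and polyA RNA was sequenced from 3 cultures of each. The mutants were spt20Δ, which lacks Spt20, spt20-HITΔ (spt20-HITD-PK3 in the labels), whose PK3-tagged Spt20 lacks only the short HIT region that contacts Tra1, and tra1Δ. In tra1-Sptra2 (labelled tra1-spTra2) the stretch of Tra1 that docks on SAGA is replaced by that of Tra2, which does not bind SAGA, and in tra1-Sctra1 (labelled tra1-scTra1) by that of budding yeast Tra1, which does. WT was their control. The strains tti2-CKO (cre-ER lox-tti2-lox) and tra2-CKO (cre-ER lox-tra2-lox) carry a CreER recombinase and a floxed gene, and were treated with β-estradiol or with DMSO, as was the creER control strain, which has no floxed gene. The tti2-CKO cultures were treated for 18 h, the others for 21 h. Each group is 1 strain by its strain number, so the spread between libraries is that of cultures of 1 strain. Totals were 4811942 to 9724398 counts per library. The RNA of spt20 was 4.48 ± 0.857 CPM in spt20Δ, 27.8 ± 4.51 CPM in spt20-HITΔ and 38.4 ± 2.71 CPM in WT, and that of tra1 was 0.443 ± 0.232 CPM in tra1Δ and 91.5 ± 3.26 CPM in WT (SD, n = 3 each). With β-estradiol and with DMSO, tti2 was at 0.561 and 11.2 CPM in tti2-CKO, and tra2 at 8.36 and 113.6 CPM in tra2-CKO. The lowest correlation between libraries of 1 group was 0.9693 (log2 CPM), among creER cultures with DMSO.

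SAGA is a transcription coactivator with a histone acetyltransferase and a histone deubiquitinase. Spt20 belongs to its structural core, and Tra1 is a large pseudokinase through which activators recruit the complex. In fission yeast, Tra1 works in SAGA and its paralogue Tra2 in NuA4, while Tti2 is a subunit of the TTT complex, an Hsp90 cochaperone for this kinase family. A strain without Spt20 therefore lacks a core subunit as well as Tra1 in SAGA, and a strain without Tra1 or without its contact site lacks Tra1 while Spt20 is present.

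The DNA just upstream of 5 members is shown because these genes represent the roles described next and each holds a short motif known for its pathway. The sequences run 5′ to 3′ on the gene's own strand in RefSeq assembly ASM294v3, end at the last base before the annotated gene start, and stop short of any neighbouring gene. Capitals mark the motif, which is GAANNTTC (heat shock element) for aha1 and hsp20, GATAAG (core of the site of the iron regulator Fep1) for mmt1, TGACGT (Atf1 site) for git5 and CCCCAC (Scr1 site) for rst2.
aha1, chromosome II, plus strand: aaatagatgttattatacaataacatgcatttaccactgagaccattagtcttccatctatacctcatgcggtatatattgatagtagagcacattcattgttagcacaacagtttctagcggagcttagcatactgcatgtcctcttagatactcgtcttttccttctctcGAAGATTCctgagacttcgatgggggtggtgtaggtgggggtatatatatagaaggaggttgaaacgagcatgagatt
hsp20, chromosome III, plus strand: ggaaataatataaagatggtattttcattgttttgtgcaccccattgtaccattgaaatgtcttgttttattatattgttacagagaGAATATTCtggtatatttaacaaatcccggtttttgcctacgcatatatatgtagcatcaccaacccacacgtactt
mmt1, chromosome III, minus strand: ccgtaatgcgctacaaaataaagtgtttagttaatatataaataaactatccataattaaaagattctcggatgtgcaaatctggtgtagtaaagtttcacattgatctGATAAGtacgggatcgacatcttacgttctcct
git5, chromosome II, plus strand: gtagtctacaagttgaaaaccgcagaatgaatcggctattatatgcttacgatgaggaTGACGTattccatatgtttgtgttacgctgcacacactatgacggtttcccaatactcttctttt
rst2, chromosome I, plus strand: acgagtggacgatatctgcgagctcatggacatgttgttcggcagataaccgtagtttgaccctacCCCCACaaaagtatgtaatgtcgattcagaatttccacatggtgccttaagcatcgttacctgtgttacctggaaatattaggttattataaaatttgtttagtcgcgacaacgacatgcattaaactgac
The motif begins 78 bases before the gene start in aha1, 77 in hsp20, 33 in mmt1, 65 in git5 and 131 in rst2. A match is a description of the letters and not a site of binding. Over 300 bases from 250 before to 50 after the gene start, on both strands, GAANNTTC was present in 13.7% of members and 11.1% of all 5106 promoters, TGACGT in 8.82% and 5.91%, GATAAG in 11.8% and 11.6%, and CCCCAC in 3.92% and 3.23%. Of other motifs searched, the 5-letter CCAAT was in 47.1% of members and 42.2% of all promoters, and TATAAA in 45.1% and 48.1%. The Mei4 core motif GTAAACA was in 17.6% of members and 16.5% of all promoters, the Pap1 motif TTACTAA in 10.8% and 11.99%, and the ribosomal gene motif AACCCT in 7.84% and 9.71%. The cell cycle motif ACGCGT, the Ste11 motif TTCTTTGTT and the HomolD motif CAGTCACA were in 2 members or fewer. No test was made of these shares.

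The members' M in spt20Δ, cut off at 0.7 by the rule, ranged between 0.70 and 1.57 with a median of 0.80, and 48 of 102 lay under 0.8 while 12 reached 1. Relative to the WT mean, the median member was at 0.81, 0.83 and 0.84 (log2) in the 3 spt20Δ libraries, against −0.08, 0.00 and 0.07 in the 3 WT libraries. The same median was 0.15, 0.30 and 0.30 in spt20-HITΔ and 0.17, 0.20 and 0.25 in tra1-Sptra2, against −0.07, 0.03 and 0.15 in tra1-Sctra1. The spt20Δ libraries stood apart from all others by this measure, which the limits of the rule favoured, so that this gap is not counted as a result. The WT and tra1-Sctra1 libraries overlapped. Every spt20Δ library was above every WT library for all 102 members and for 50.6% of the kept genes, which the choice of members fixed in large part, so that the gap of single members to WT is not counted as a result. In bulk RNA, more RNA per cell and more cells that express a gene cannot be told apart. The summed level of the members was 12806 to 13563 CPM in spt20Δ, against 7343 to 7587 CPM in WT. It was 7942 to 9683 CPM in spt20-HITΔ, 7903 to 8904 CPM in tra1-Sptra2 and 7681 to 8263 CPM in tra1-Sctra1.

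**Figure D1:**
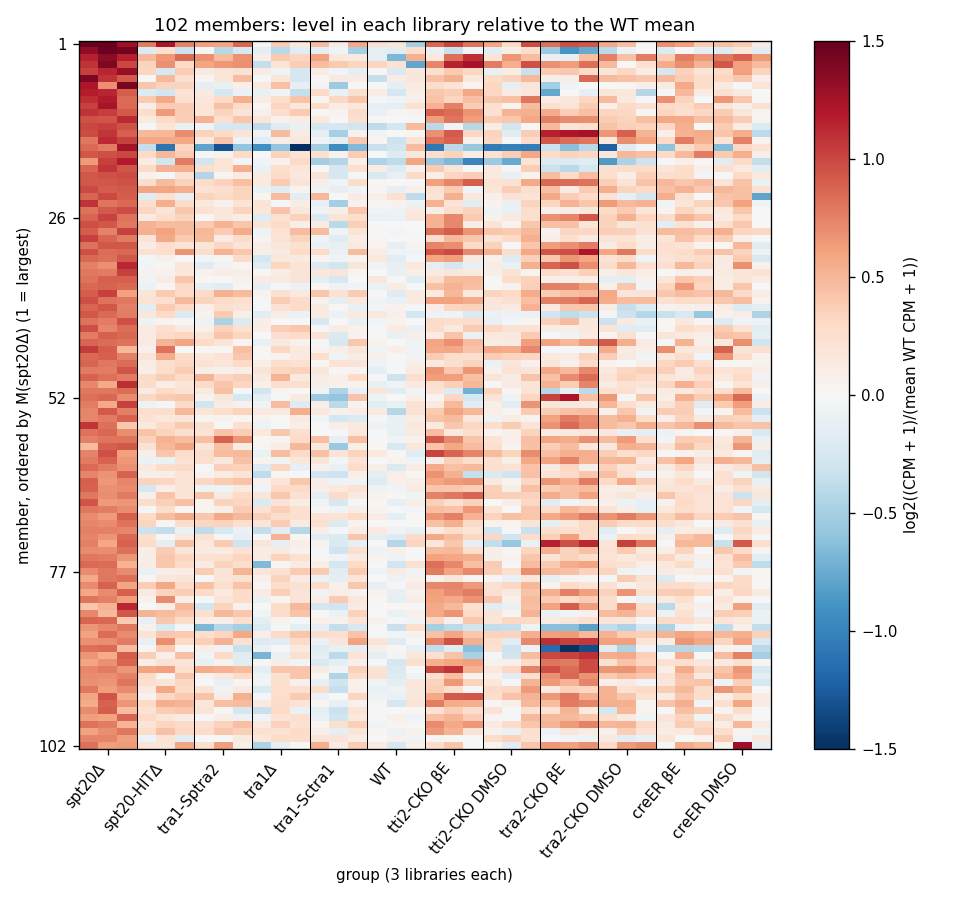
Level of each of the 102 members (rows, ordered by M in spt20Δ) in each of the 36 libraries (columns, 3 per group), as log2((CPM + 1)/(mean WT CPM + 1)), red above and blue below the WT mean, with colours ending at 1.5. The 3 spt20Δ columns at the left are red in every row, and the other columns are paler, apart from single rows that are dark red or blue in several groups.

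**Figure D2:**
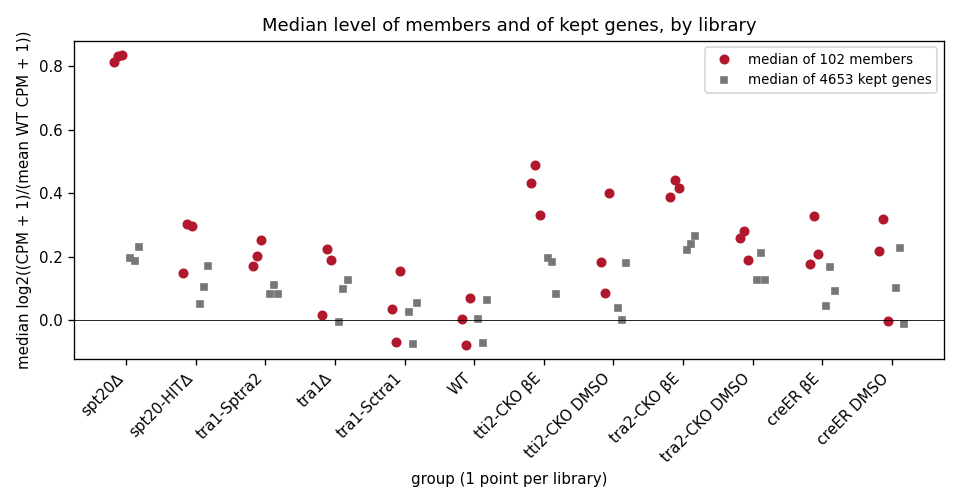
Median over the 102 members (circles) and over the 4653 kept genes (squares) of log2((CPM + 1)/(mean WT CPM + 1)), 1 point per library in each of 12 groups. In spt20Δ the members' medians lie between 0.81 and 0.84 and those of all kept genes between 0.19 and 0.23.

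These levels are shares of each library, and the median of all 4653 kept genes was itself 0.21 higher in spt20Δ than in WT on this scale. With the library sizes adjusted by edgeR's TMM factors, that median was 0.01, the members' median was 0.61, the lowest member was at 0.49 and 25 members reached 0.7. All 102 members were above 0 on both scales, which the limit of 0.7 largely fixed. The shift differed with the level of a gene. Among 334 kept genes under 20 CPM in WT the median M in spt20Δ was 0.57, and among the 388 genes of 500 CPM or more it was −0.14. Members sat at the low side, with a median WT level of 30.0 CPM against 82.4 CPM for the other kept genes, and 27 of them were under 20 CPM. Their median M exceeded that of all genes in each level class, which the limit of 0.7 fixes, at 0.92 against 0.57 under 20 CPM, 0.78 against 0.42 at 20 to 50 CPM, and 0.84 against −0.14 for the 3 members of 500 CPM or more.

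**Figure D3:**
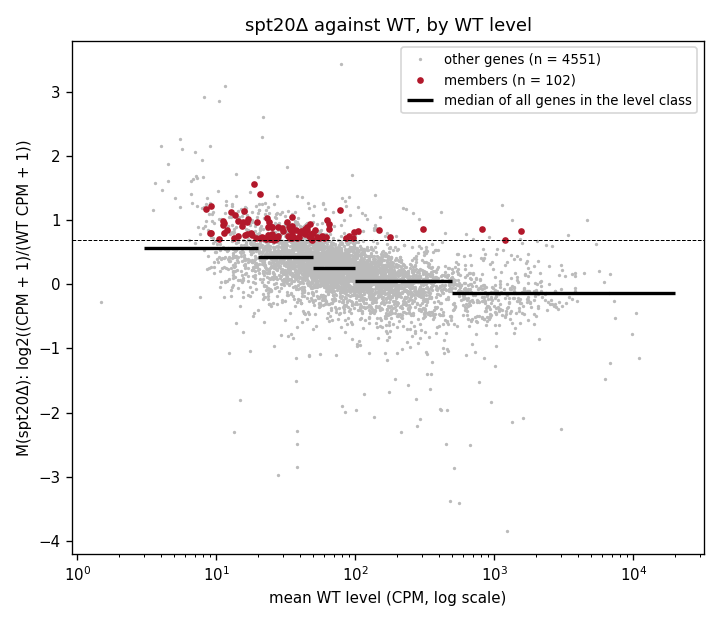
M in spt20Δ against the mean WT level in CPM (log scale) for the 102 members (large points) and the other 4551 kept genes (small points). Black lines give the median of all genes in 5 level classes, which falls with the WT level between 0.57 and −0.14, and the dashed line is the minimum of 0.7 set by the rule.

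The largest difference was that of SPAC17G6.03, which RefSeq annotates as a phosphoprotein phosphatase. It had 60.4, 64.5 and 46.3 CPM in spt20Δ, against 21.8, 21.0 and 12.9 CPM in WT, an M of 1.57. Its levels in spt20-HITΔ, 32.4, 44.9 and 31.8 CPM, lay between those of spt20Δ and WT. The next, mmt1, encodes a mitochondrial iron transporter. It had 53.7, 59.1 and 57.8 CPM in spt20Δ, against 18.8, 18.3 and 25.0 CPM in WT, and 17.9, 24.8 and 16.4 CPM in spt20-HITΔ. In every library of the other 11 groups mmt1 was lower than in the lowest spt20Δ library, and its M was −0.07 in spt20-HITΔ.

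Among the other members of M 1 or more, ctr1 (SPAC140.04), SPCC191.06 and SPAPB2B4.06 are without a role given here and were low. Their means were 22.9, 20.3 and 35.4 CPM in spt20Δ, against 9.23, 8.45 and 17.0 CPM in WT. The first of these varied most in the control, with 8.39, 5.43 and 13.9 CPM in WT. Of the more abundant ones, mug115 had 159, 173 and 194 CPM in spt20Δ, against 78.6, 66.6 and 87.8 CPM in WT, and SPBC216.03 had 76.2, 80.7 and 63.8 CPM, against 34.1, 33.5 and 36.9 CPM.

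Genes were called where edgeR gave a Benjamini-Hochberg adjusted p of at most 0.01 over all genes tested and a fold change of at least 1.5. Between spt20Δ and WT, 7.09% of 4920 genes were called higher and 5.73% lower. Since this contrast chose the members, calls in it are given here only for genes of the same pathways that are not members. A kept gene with an M of at least 0.7 in spt20Δ that is not a member missed a limit of the rule on another condition. Such calls therefore show a difference from WT and not one from tra1Δ.

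**Figure D4:**
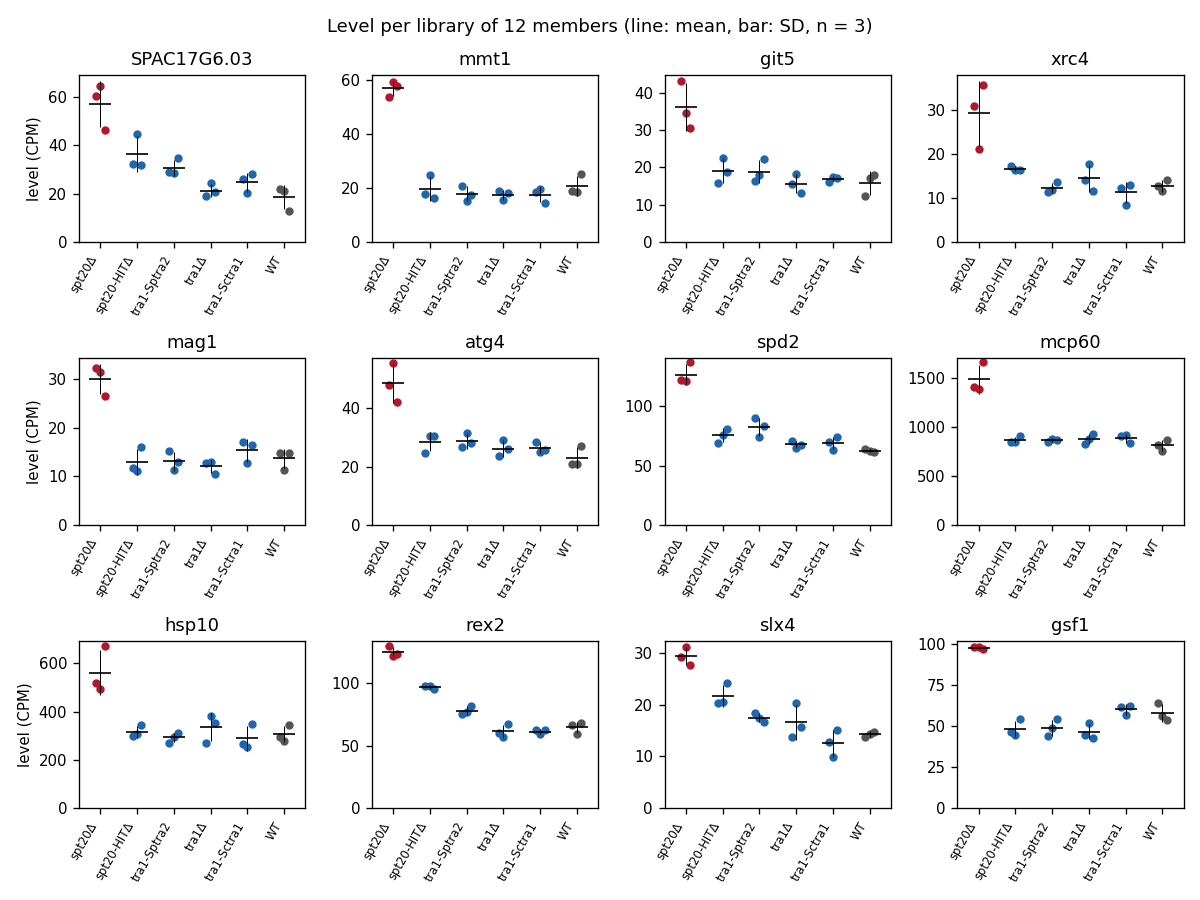
Level in CPM of 12 members in each library of spt20Δ, spt20-HITΔ, tra1-Sptra2, tra1Δ, tra1-Sctra1 and WT (points), with the mean (line) and SD (bar, n = 3). For all 12 genes the 5 other groups lie below spt20Δ, which the choice of members favoured. Every spt20Δ library was above every spt20-HITΔ, tra1-Sptra2 and tra1-Sctra1 library for 90.2% of members and 24.4% of kept genes. For rex2 and slx4, neither of them called, the spt20-HITΔ points lie above those of tra1-Sctra1.

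By RefSeq product and known roles, 80 members were placed in 10 groups, drawn up after their values were seen and so given without a test. The largest group, 14 genes, acts in DNA repair, replication and chromosome segregation. Their M in spt20Δ ranged between 0.71 and 1.14. The end-joining factor xrc4, the partner of DNA ligase IV, had 31.0, 21.2 and 35.7 CPM in spt20Δ, against 12.7, 11.5 and 14.2 CPM in WT. The 3-methyladenine DNA glycosylase gene mag1, which starts base excision of alkylated bases, had 32.3, 31.6 and 26.6 CPM in spt20Δ, against 14.9, 11.4 and 14.8 CPM in WT, and 11.7, 11.1 and 16.0 CPM in spt20-HITΔ. In spt20-HITΔ the levels of mag1 overlapped those of WT. The group holds both subunits of 1 endonuclease. For slx4 and slx1, the subunits of a structure-specific endonuclease, means were 29.4 and 29.2 CPM in spt20Δ, against 14.3 and 16.5 CPM in WT. For ctp1 and nbs1, which act with the Mre11 complex in resecting DNA ends, they were 82.5 and 63.2 CPM in spt20Δ, against 45.2 and 34.8 CPM in WT. The ribonucleotide reductase inhibitor family gene spd2 had 122, 121 and 137 CPM in spt20Δ, against 63.6, 62.4 and 61.2 CPM in WT.

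Segregation genes in the group were klp9, a kinesin-6 motor of the anaphase spindle, cut4, a scaffold subunit of the anaphase-promoting complex, and the centromere factors scm3 and cnp20. In spt20Δ klp9 had 60.3, 64.2 and 64.2 CPM, against 38.3, 33.6 and 30.0 CPM in WT, and cut4 had 67.0, 53.7 and 54.9 CPM, against 34.8, 31.3 and 36.6 CPM. Of 13 end-joining, Mre11-complex, Slx1-Slx4 and Mag genes listed after the values were seen, 6 are members. Of the 6 other genes tested in spt20Δ against WT, 3 were called, all higher, with a median log2 fold change of 0.56 over the 6. They were rad50, lig4 and xlf1, and lig4 encodes the DNA ligase IV that Xrc4 partners. Over the 12 kept genes of this list, 9 of which had an M of at least 0.7 in spt20Δ, the median M was 0.85 there and 0.20 in tra1Δ. The 6 members among them were chosen by M in both strains, so these values are not counted as a result. Of all 4653 kept genes 406 had an M of at least 0.7 in spt20Δ, with medians of 0.21 there and 0.08 in tra1Δ.

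A second group belongs to glucose sensing through cAMP, in which a G protein activates adenylate cyclase and protein kinase A then restrains the transcription factor Rst2. The G protein β subunit gene git5 had 43.4, 34.6 and 30.8 CPM in spt20Δ, against 12.2, 17.2 and 18.0 CPM in WT. The kinase catalytic subunit gene pka1 had 122, 133 and 99.5 CPM in spt20Δ, against 65.2, 57.0 and 71.4 CPM in WT. The transcription factor gene rst2 had 131, 155 and 141 CPM in spt20Δ, against 84.7, 83.0 and 89.6 CPM in WT. WT was low for rst2, which had 103, 102 and 116 CPM in tra1-Sctra1. In tra2-CKO with β-estradiol rst2 had 132, 134 and 122 CPM, which overlapped spt20Δ. In tra1-Sctra1 pka1 had 86.4, 75.1 and 84.6 CPM, also above WT, and git5 had 16.1, 17.4 and 17.3 CPM, within the range of WT. Members thus include an upstream subunit, the kinase and the factor it restrains. The G protein regulator ric8 and the ubiquitin ligase gene gid2 had an M of 0.73 and 0.80. In a list of 13 cAMP pathway genes drawn up after the values were seen, 4 are members. Of the other 9, 2 were called higher and 2 lower in spt20Δ (median log2 fold change 0.30). The higher ones were git11, the G protein γ subunit gene, and hsp90, also known as git10. The lower ones were gpa2 and git3, which encode the G protein α subunit and the glucose receptor. In the list of glucose-repressed genes rst2 alone is a member, and of the other 20 tested 7 were called higher and 3 lower (median 0.18). The 7 higher ones included fbp1, a target of Rst2, and the hexose transporter genes ght1, ght2, ght3 and ght5. Over the 19 kept genes of that list the median M was 0.28 in spt20Δ and 0.38 in tra1Δ. A part of Rst2 in these levels was not tested.

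Chaperones and assembly factors made up 7 members. The mitochondrial chaperonin mcp60 had 1409, 1393 and 1662 CPM in spt20Δ, against 817, 755 and 866 CPM in WT. Its cochaperonin hsp10 had 521, 495 and 671 CPM in spt20Δ, against 296, 281 and 344 CPM in WT. The M in spt20Δ was 0.87 for both. The Hsp90 activator aha1 had 163, 147 and 213 CPM in spt20Δ, against 91.5, 95.3 and 109 CPM in WT. The small heat shock family gene hsp20 had 90.4, 90.7 and 92.1 CPM, against 47.8, 47.1 and 45.7 CPM. On loss of Tra2 (tra2-CKO with β-estradiol) hsp10 had 561, 593 and 497 CPM and aha1 142, 128 and 165 CPM, which overlapped spt20Δ. There hsp20, with 85.8, 84.9 and 83.5 CPM, and mcp60, with 994, 950 and 1043 CPM, stayed below spt20Δ. These 4 genes differ in level and have an M of 0.82 to 0.94 in spt20Δ. The rule held all members between 0.70 and 1.57, so this likeness is not counted as a result. The tubulin cofactor alp21, the proteasome assembly chaperone pac4 and the V-ATPase assembly gene vph2 had an M of 0.98, 0.83 and 0.97. Of 16 heat shock genes listed, 3 are members, and of the other 13, 2 were called higher in spt20Δ and 2 lower, with a median log2 fold change of 0.02. The higher ones were hsp90 and wos2, and the lower ones were the Hsp70 genes ssa1 and ssa2.

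Autophagy, vacuole and membrane traffic genes numbered 13, with an M between 0.70 and 1.04. The Atg8 protease gene atg4 had 47.9, 55.4 and 42.2 CPM in spt20Δ, against 21.0, 20.9 and 27.2 CPM in WT. For atg14, a subunit of the autophagy phosphatidylinositol 3-kinase, the means were 55.7 CPM in spt20Δ and 29.9 CPM in WT. For the vacuolar lipase gene atg15 they were 104 and 61.7 CPM, and for the WD repeat gene atg1803 28.2 and 16.1 CPM. Of the 24 other genes whose symbol starts with atg, 5 were called in spt20Δ, all higher, with a median log2 fold change of 0.42 over the 24. Over the 27 kept atg genes, 9 of which had an M of at least 0.7 in spt20Δ, the median M was 0.63 there and 0.11 in tra1Δ. The 4 members among them were chosen by M in both strains, so these values are not counted as a result. Over all 4653 kept genes the medians were 0.21 and 0.08. Traffic genes beside the atg genes were gos1, a Golgi SNARE, vps26, a retromer subunit, and bro1, which sorts cargo to the vacuole. With 36.5, 46.0 and 39.3 CPM in spt20Δ, against 25.2, 20.2 and 28.2 CPM in WT, bro1 was among the members nearest the limit.

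Members that handle metals or carry solutes numbered 8. Next to mmt1 stood atm1, the mitochondrial ABC transporter of the iron-sulfur pathway. It had 101, 90.7 and 89.2 CPM in spt20Δ, against 49.3, 47.6 and 57.0 CPM in WT. In tra2-CKO with β-estradiol atm1 had 87.3, 87.8 and 94.8 CPM, which overlapped spt20Δ. The glutaredoxin gene grx2 had 89.8, 87.3 and 78.8 CPM in spt20Δ, against 45.2, 45.2 and 45.4 CPM in WT. The siderophore transporter gene str2 had 74.7, 79.6 and 85.4 CPM in spt20Δ, against 50.0, 45.9 and 50.4 CPM in WT. Of the 13 other iron genes tested 1 was called in spt20Δ, the ferric reductase gene frp1, which was lower (median log2 fold change 0.04). The glutathione transporter pgt1 had 286, 270.4 and 254 CPM in spt20Δ, against 167, 157 and 124 CPM in WT, and the phosphoenolpyruvate transporter pet1 had 262, 307 and 313 CPM, against 177, 168 and 185 CPM. The mitochondrial group of 4 held the cytochrome oxidase assembly genes cox19 and shy1, with an M of 0.92 and 0.79. In the redox list, grx2 alone is a member, and of the other 22 genes 4 were called higher and 4 lower (median 0.05).

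Signalling enzymes outside the cAMP pathway numbered 6. Besides SPAC17G6.03 they included cmk1, a calmodulin-dependent protein kinase, at 63.0 CPM in spt20Δ and 35.1 CPM in WT, and ptc1, a PP2C phosphatase, at 91.7 and 55.0 CPM. The kinase gene ppk24 and the phosphatase 2A activator gene ypa2 had an M of 0.84 and 0.74. Of the 7 genes of RNA processing, export and the ubiquitin system, rex2, an RNA exonuclease, was the most abundant, with 130.0, 122 and 123 CPM in spt20Δ, against 66.5, 59.5 and 68.1 CPM in WT. The F-box gene pof14, which serves substrate choice by ubiquitin ligases, and the mRNA export factor gene gle1 had an M of 0.99 and 0.75.

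The 2 most abundant members are metabolic enzymes. SPBC8D2.18c encodes adenosylhomocysteinase, which clears the product of methyl transfer reactions, and had 3235, 2912 and 2203 CPM in spt20Δ, against 1489, 1670.1 and 1513 CPM in WT. Its levels in spt20-HITΔ were 1636, 2737 and 1567 CPM, with the second library apart from the other two. The pentose phosphate enzyme gene gnd1 had 2007, 2005 and 1860.2 CPM in spt20Δ, against 1198, 1262 and 1151 CPM in WT. Of 12 metabolic enzymes, the glyoxalase gene glo2 followed in level, with a mean of 186 CPM in spt20Δ and 104 CPM in WT. Mating and surface genes included the mating agglutinin gene map4, with 66.3, 69.1 and 61.1 CPM in spt20Δ and 34.7, 37.4 and 35.3 CPM in WT. Of 20 mating and meiosis genes tested 0 are members, and 6 were called higher in spt20Δ. Over the 15 kept genes of that list the median M was 0.64 in spt20Δ and 0.59 in tra1Δ. Of 141 ribosomal protein genes 0 are members, and 28 were called in spt20Δ, all lower (median log2 fold change −0.42).

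The comparison of spt20-HITΔ with tra1-Sctra1 uses no library from which the M limits of the rule were computed. Its libraries entered the rule only through the minimum of 10 CPM over all 36 libraries. It sets cells in which Spt20 is present but Tra1 does not join SAGA against cells whose hybrid Tra1 does join it. The RNA of spt20 itself was 27.8 ± 4.51 CPM in spt20-HITΔ and 48.0 ± 1.85 CPM in tra1-Sctra1 (SD, n = 3 each), and its part in the result was not tested. No member passed the test. With edgeR, 0 of 102 members were called higher and 0 lower, against 0.0409% and 0.266% of the 4888 genes tested. At an unadjusted p under 0.05 there were 16 members (15.7%, against 16.6% of all genes), and DESeq2 called 0. The members' median log2 fold change was 0.11, with quartiles of 0.02 and 0.24, and the median of all genes was 0.01. Fold changes were above 0 for 80 members (78.4%), against 53.2% of all genes. The 95% interval of the fold change ended below 1.5-fold for 77 members and below 2-fold for 98. Every spt20-HITΔ library was above every tra1-Sctra1 library for 31 members (30.4%), against 20.9% of kept genes. Without replicate 2 of spt20-HITΔ 111 genes were called in place of 15, with 0 members among them and a members' median of 0.09.

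**Figure D5:**
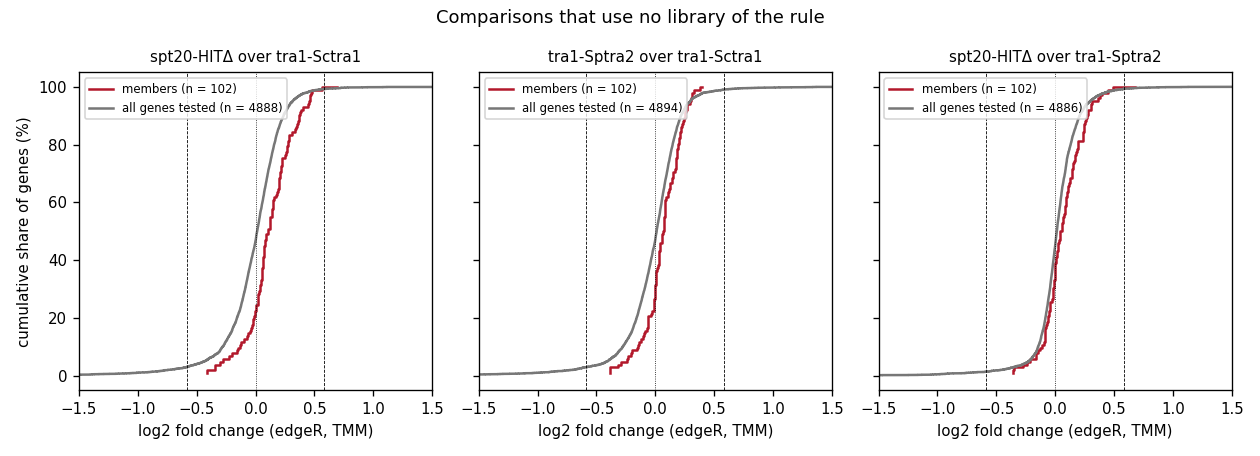
Cumulative share in % of the 102 members (red) and of all genes tested (grey) by log2 fold change, with dashed lines at 1.5-fold. The 3 comparisons use no library of the M limits of the rule. The members' curve lies to the right of that of all genes in the first panel (medians 0.11 and 0.01) and by less in the other panels.

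The genes that came nearest to a call were chosen after their values were seen. The RNA exonuclease gene rex2 had 98.0, 98.0 and 95.2 CPM in spt20-HITΔ, against 62.6, 59.2 and 62.2 CPM in tra1-Sctra1, a log2 fold change of 0.56 ± 0.08 (SE, 95% interval 0.39 to 0.74, adjusted p = 0.0107 from edgeR). The largest fold change was that of slx4, with 20.4, 20.6 and 24.1 CPM in spt20-HITΔ, against 12.9, 9.85 and 15.0 CPM in tra1-Sctra1 (0.69 ± 0.16, adjusted p = 0.0682 from edgeR). In the other direction, gsf1 had 46.1, 44.4 and 53.9 CPM in spt20-HITΔ, against 61.5, 56.3 and 62.1 CPM in tra1-Sctra1 (−0.42 ± 0.09, adjusted p = 0.0592 from edgeR). None of the 3 overlapped between the groups, and none was called. For gsf1 the sign was opposite to that in spt20Δ, where it had 98.1, 98.2 and 96.4 CPM, against 63.7, 55.7 and 53.5 CPM in WT.

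Members with the largest M in spt20Δ did not share 1 value here. The fold change in spt20-HITΔ over tra1-Sctra1 was 0.46 ± 0.17 for SPAC17G6.03 (95% interval 0.08 to 0.85) and 0.48 ± 0.18 for xrc4 (0.08 to 0.87) on the log2 scale. For mmt1 it was 0.07 ± 0.21 (−0.41 to 0.54), for git5 0.07 ± 0.16 (−0.30 to 0.44) and for atg4 0.01 ± 0.12 (−0.27 to 0.29). For mag1 it was −0.35 ± 0.18 (−0.75 to 0.05), below 0. The upper ends of the intervals of mcp60, pka1 and aha1 were 0.09, 0.04 and 0.22, under a 1.5-fold change. Among role groups the medians were highest for DNA repair, replication and segregation (0.23, with 13 of 14 genes above 0) and for the 4 mitochondrial respiration and translation genes (0.21), and lowest for the 4 cell surface and mating genes (−0.07). The lists around them had medians of 0.19 (end joining, Mre11 complex and Slx1-Slx4), 0.03 (atg genes), −0.01 (cAMP pathway) and −0.12 (heat shock).

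Between the tra1 hybrids, which share the tra1-Sctra1 libraries with the comparison above, 0 of 102 members were called higher and 0 lower in tra1-Sptra2 by edgeR. Of the 4894 genes tested, 0.45% were called higher and 2.04% lower. The unadjusted p was under 0.05 for 15 members (14.7%, against 26.1% of all genes), and DESeq2 called 0. The members' median was 0.07 and that of all genes 0.01, with 71 members above 0 (69.6%, against 52.7% of all genes). Without tra1-Sctra1 replicate 3 the members' median was 0.12. Their intervals all ended below 2-fold, and 92 ended below 1.5-fold. The 182 genes that passed the rule's limit in spt20Δ but had an M of at least 0.3 in tra1Δ had a median of 0.17 in this comparison, and 12 of them were called higher. In spt20-HITΔ against tra1-Sctra1 those 182 genes had a median of 0.13, beside 0.11 for the members, and 0 were called. No test was made of the difference between the sets.

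Directly between spt20-HITΔ and tra1-Sptra2, whose libraries each served in a comparison above, the members had a median log2 fold change of 0.06, and 0.01 was the median of all genes. By edgeR 0 members were called in either direction (0% of 4886 genes were called higher and 0.0409% lower), with 10 at an unadjusted p under 0.05 (9.8%, against 9.13% of all genes) and 0 by DESeq2. Without spt20-HITΔ replicate 2 the members' median was 0.01. Between spt20Δ and spt20-HITΔ the members' median log2 fold change was 0.46, a description only, since the spt20Δ libraries had chosen the members.

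Across the whole series spt20Δ had the highest mean for 90 members, tra2-CKO with β-estradiol for 9 and tti2-CKO with β-estradiol for 3. For 54 members every spt20Δ library was above every library of the other 11 groups (52.9%, against 4.99% of kept genes), which the choice for high spt20Δ values favoured. The exceptions with the highest mean on loss of Tra2 included slx4, aut12, got1 and uvi15. In slx4 the levels were 33.5, 34.6 and 35.6 CPM with β-estradiol and 23.3, 27.5 and 20.9 CPM with DMSO in tra2-CKO. Relative to the WT mean, the members' median reached 0.40 in the DMSO cultures of the CreER strains and was above 0 in all of these libraries except replicate 3 of creER. The median of all kept genes was 0.18 in the library at 0.40 and reached 0.23 in another, and the members' median exceeded it by 0.01 to 0.22 in these libraries. The rule set no lower limit in tra1Δ or on loss of Tra2, and a few members were lower there. SPCC1235.17 had 8.35, 10.6 and 3.98 CPM in tra1Δ, against 13.0, 13.5 and 23.2 CPM in WT. The Ragulator subunit gene lam4 had 9.36, 6.30 and 8.20 CPM in tra2-CKO with β-estradiol, against 19.4, 15.7 and 21.4 CPM with DMSO.

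Members numbered 51 on chromosome I, 27 on chromosome II and 24 on chromosome III. These are 50%, 26.5% and 23.5%, against 45.3%, 36.8% and 17.9% of kept genes. Within 100 kb of a chromosome end lay 2 members (1.96%, against 1.89% of kept genes). With no background count made, 4 pairs of annotated neighbours were members together. These were SPAC17G6.03 with bro1, which face each other, pgt1 with SPAC29B12.11c and cut4 with pka1, each pair on 1 strand, and klp9 with gsf1, which point apart. Exon lengths had a median of 1705 bases for members and 1764.5 bases for other kept genes, and GC content 36.3% and 37.3%. An intron was present in 47.1% of members, against 49.4% of kept genes. Over 1% of the 50-base windows of 1 member, SPCC576.02, occur elsewhere in the genome, so that its reads may be shared with a copy. Another gene on the same strand overlaps 8 members, whose counts may miss the reads of the overlap.

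The limit of 0.7 in spt20Δ fell within a continuous range of values. Just inside it, SPAC29B12.11c, gnd1 and str2 had an M of 0.70, and just outside it, meeting the other limits, snu23 had 0.70, SPAC10F6.17c 0.69 and pku80 0.69. The last encodes the end-joining factor Ku80, in the pathway of the member xrc4. Means of pku80 were 86.4 CPM in spt20Δ and 53.0 CPM in WT.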

How the data were processed

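PolyA RNA of 36 cultures in 12 groups of 3 was sequenced with a stranded kit, and other libraries of the study were not analysed here. The authors mapped reads with HISAT2 2.1.0 and deposited whole-number counts per gene from htseq-count (HTSeq 0.9.1, reverse stranded, union mode), with DESeq2 1.18.1 also in the submitters' processing notes, and the genome build is not given in the sources used here. Totals of 4811942 to 9724398 counts per library set the precision of low genes. CPM were computed from these counts with column totals. Library groups came from the labels. Pairs of groups were compared on their own 6 libraries with edgeR 4.0.16 (TMM factors, filterByExpr, quasi-likelihood test) in R 4.3.3, with Benjamini-Hochberg adjustment over all genes tested, after the script was tested on simulated data. Genes were called at a 1.5-fold change or more and an adjusted p up to 0.01. Alternatives were DESeq2 1.42.0, other scaling and low-count filters, a replicate block, a single fit of 36 libraries, no fold threshold and leaving out each library. Names, products and neighbours came from RefSeq ASM294v3 by gene ID. The result of 1 motif searched is not reported here.

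The members and gene lists were chosen with earlier results of these data known. Genes were named by a rule. It took the 12 members with the largest M in spt20Δ and the 6 with the highest mean CPM. It also took members called in a comparison without libraries of the M limits. The 3 members and 3 other genes nearest the limit, members of a fixed gene list, neighbouring members, spt20 and tra1 were named as well. Other named members illustrate role groups, which were drawn up after values were seen, as were the lists of cAMP and DNA end genes. Replicates are cultures of 1 strain, so p-values set a difference against the spread between cultures. They cannot tell genotype from other differences between strains.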

Additional observations from a re-analysis of the deposited data

How the results depend on the processing

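The count of members called stayed at 0 in the 3 comparisons without libraries of the M limits under every alternative run. Changes of sign were looked for only in called genes, so the stability of the members' signs was not tested. The number of all genes called moved. In spt20-HITΔ against tra1-Sctra1, with 15 called, it was 81 with DESeq2 and 45 in a single fit of 36 libraries, and leaving out 1 library gave 0 to 111, with 111 without spt20-HITΔ replicate 2 and 0 without spt20-HITΔ replicate 1 or any 1 tra1-Sctra1 replicate. In tra1-Sptra2 against tra1-Sctra1, with 122 called, it was 69 in the single fit and 226 with no fold threshold. The members' median there was 0.07, and 0.040 to 0.12 when 1 library was left out, with 0.12 without tra1-Sctra1 replicate 3. In spt20-HITΔ against tra1-Sptra2, with 2 called, it was 32 with DESeq2, 6 in the single fit and 0 with the replicate block, and leaving out 1 library gave 0 to 63, with 63 without spt20-HITΔ replicate 2. The cause was not tested.

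Like-numbered libraries correlated at 0.0199, 0.0144 and 0.123 in the first comparison, 0.117, −0.0808 and 0.143 in the second and 0.211, −0.166 and −0.186 in the third. Unlike-numbered ones lay between −0.101 and 0.0736, −0.234 and 0.152, and −0.138 and 0.244. The labels do not say whether like-numbered libraries share a day or batch, and these values cannot decide it. Samples were treated as unpaired. With the replicate block 12, 129 and 0 genes were called in these comparisons.

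The set itself depends on the scaling. With TMM library sizes 45 genes met the rule, of which 24 are among the 102 (53.3% of the 45 and 23.5% of the 102). It held 100 and 81 genes with a pseudocount of 0.5 and 5 CPM, 112 and 84 with a minimum of 5 and 20 CPM, 83 with group medians, and 79 to 111 with 1 library left out. The leave-outs of CreER strain libraries were chosen after seeing the data. Under all 34 settings 5 genes stayed members, SPAC7D4.05, rex2, git5, mmt1 and vph2.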
